A study of Mus musculus with 2 samples.

Results

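The transcripts of 8 genes known from mouse alveolar macrophages were followed across single lung cells, namely Ear1, Ear2, Ear10, Rnase2a, Chil3, Retnla, Fbp1 and Krt79. They were chosen by symbol, 8 of the 28692 genes listed in both count matrices, and each symbol stood on 1 row. The cells came from lungs of Lepr-Cre;Rosa26-tdtomato mice aged 8 to 10 weeks, in which Cre made under the leptin receptor gene Lepr switches on a tdTomato reporter, and live tdTomato-positive cells had been sorted. One group of mice had received saline and the other bleomycin, a DNA-damaging drug that is used to produce lung fibrosis in rodents. Both groups carried the same alleles and there was 1 library per group. None of the sources used here gives the number of mice behind a library, the dose or the day of collection. How pure the tdTomato sort was could not be examined. Lepr itself had UMIs in the macrophages studied, at the levels given with their markers.

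Alveolar macrophages live in the airspaces, take up surfactant and inhaled particles, and depend on the cytokine GM-CSF and the lipid-sensing transcription factor PPARG. In the mouse they carry transcripts of small secreted ribonucleases of the RNase A superfamily, the eosinophil-associated ribonucleases (Ear genes and Rnase2a), which are named after the eosinophil granule. They also make Chil3 (Ym1), a chitin-binding protein that lacks chitinase activity and forms crystals in inflamed airways. Retnla (FIZZ1, a resistin-like secreted protein) and Chil3 are widely used as markers of macrophages that have met IL-4 or IL-13. Fbp1 encodes fructose-1,6-bisphosphatase, an enzyme of gluconeogenesis, and Krt79 a type II keratin that is best known from hair follicle epithelium.

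On the mouse genome (GRCm38, GENCODE vM21) Ear1 (chromosome 14, 43818765 to 43875517, minus strand), Ear10 (43922720 to 43923559, minus strand) and Ear2 (44102654 to 44103534, plus strand) lie within 284.8 kb that also hold 6 Ear pseudogenes. Rnase2a (chromosome 14, 51255262 to 51256112, minus strand) lies in a second group of relatives on the same chromosome, with Ear6 and Ang4. Chil3 is on chromosome 3 (106147554 to 106167564, minus strand), Fbp1 on chromosome 13 (62864753 to 62888282, minus strand), Krt79 on chromosome 15 (101929332 to 101940324, minus strand) and Retnla on chromosome 16 (48842551 to 48844461, plus strand). All 8 are annotated as protein-coding genes. The longest annotated mRNAs of the 4 ribonuclease genes have 2 exons each, against 11 in Chil3, 4 in Retnla, 7 in Fbp1 and 9 in Krt79.

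The 3 Ear genes are close copies of each other, and this bears on every count given for them. Their longest mRNAs were 96.8% identical between Ear1 and Ear2, 94.7% between Ear2 and Ear10, and 93.3% between Ear1 and Ear10, while Rnase2a was 79.8% to 81.4% identical to the 3. Of the 251 windows of 50 bases in the last 300 bases of the mRNA, where these libraries are read, 60.2% of Ear1's, 38.2% of Ear2's and 34.7% of Ear10's were also found in a transcript of another gene, all of them Ear genes or pseudogenes. None of the windows of Rnase2a, Chil3, Retnla, Fbp1 or Krt79 was shared, although the whole mRNAs of Chil3 and its neighbour Chil4 were 94.4% identical. How reads that match several genes were counted is not given in the sources used here, so the split of reads between Ear1, Ear2 and Ear10 is uncertain.

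Before their annotated starts Ear1, Ear2 and Ear10 hardly differ in sequence, while Ear10 was counted in far fewer cells than Ear1 and Ear2 and in no saline cell. Rnase2a and Fbp1 were often found in the same cells. For these reasons the 250 bases before the annotated start of the 4 ribonuclease genes and of Fbp1 are shown. They are from RefSeq (GRCm38.p6), where all 8 genes had an entry, and are written from 5′ to 3′ on the gene's own strand: Ear1 (chr14:43819640-43819889, minus), Ear2 (chr14:44102404-44102653, plus), Ear10 (chr14:43923597-43923846, minus), Rnase2a (chr14:51256113-51256362, minus) and Fbp1 (chr13:62888283-62888532, minus). Capitals mark matches to TTGCNNAA, a C/EBP-type motif, and to GAGGAA, a PU.1-type motif, searched on both strands. The window of Ear1 lies within the longer gene that GENCODE draws for it. That of Ear10 begins some bases beyond its GENCODE gene, which ends at 43923559. The window of Retnla, used below, ends at 48842608, inside its GENCODE gene, which starts at 48842551. Distances of motifs are counted from the RefSeq starts.
Ear1: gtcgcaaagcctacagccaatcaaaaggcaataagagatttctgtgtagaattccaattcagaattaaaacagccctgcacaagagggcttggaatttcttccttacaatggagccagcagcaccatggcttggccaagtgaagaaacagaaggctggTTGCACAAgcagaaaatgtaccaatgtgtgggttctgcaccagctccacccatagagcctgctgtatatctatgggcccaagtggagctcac
Ear2: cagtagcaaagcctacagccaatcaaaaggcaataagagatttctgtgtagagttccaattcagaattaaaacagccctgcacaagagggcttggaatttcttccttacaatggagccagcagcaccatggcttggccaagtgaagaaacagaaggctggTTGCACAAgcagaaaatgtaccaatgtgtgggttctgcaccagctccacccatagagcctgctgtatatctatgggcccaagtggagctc
Ear10: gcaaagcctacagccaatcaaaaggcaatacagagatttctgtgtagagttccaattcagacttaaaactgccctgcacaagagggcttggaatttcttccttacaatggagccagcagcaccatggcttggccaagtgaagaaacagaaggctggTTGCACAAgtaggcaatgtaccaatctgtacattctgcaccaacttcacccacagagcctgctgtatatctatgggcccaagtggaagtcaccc
Rnase2a: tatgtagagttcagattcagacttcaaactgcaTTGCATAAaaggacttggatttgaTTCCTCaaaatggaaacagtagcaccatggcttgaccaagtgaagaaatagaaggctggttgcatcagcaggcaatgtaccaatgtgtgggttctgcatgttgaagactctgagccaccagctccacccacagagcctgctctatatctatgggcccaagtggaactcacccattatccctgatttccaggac
Fbp1: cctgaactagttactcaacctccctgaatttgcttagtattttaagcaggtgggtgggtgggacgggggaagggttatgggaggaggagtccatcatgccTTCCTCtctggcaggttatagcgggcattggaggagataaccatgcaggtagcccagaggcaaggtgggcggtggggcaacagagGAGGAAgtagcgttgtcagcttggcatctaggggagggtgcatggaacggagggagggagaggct

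Before their starts Ear1 and Ear2 were 99.2% identical over 248 aligned bases, Ear1 and Ear10 93.9%, and Ear2 and Ear10 94.3%. Rnase2a was 85.7% to 86.4% identical to them over 206 to 210 bases. The C/EBP-type motif TTGCACAA stood 92 bases before the start of Ear1, 90 before that of Ear2 and 94 before that of Ear10, and 9.56% of all 32851 promoter windows of this length hold TTGCNNAA. In Rnase2a a match to it (TTGCATAA) began 217 bases before the start and GAGGAA matched on the other strand at 193. Fbp1 had 2 matches to GAGGAA, at 150 and 65 bases, and 23.3% of all windows hold that motif. Retnla, whose window is not printed, also matched both motifs, with TTCCTC at 196 and TTGCTAAA at 134 bases. Chil3 and Krt79 matched neither. A STAT6-type motif (TTC and GAA spaced by 4 bases, in 5.85% of all windows) matched once in the window of Retnla (TTCACAAGAA, 145 bases before the start) and in none of the other 7, and TTCNNNGAA, a STAT5-type motif found in 7.02%, matched once in that of Chil3 (TTCTTAGAA, 172 bases before). A match is a run of letters, and no binding was measured.

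The saline library held 37570380 UMIs (unique molecular identifiers, each standing for 1 captured transcript) in 5455 barcodes and the bleomycin library 61537182 in 4473, and 5196 and 4308 barcodes were kept as cells, with medians of 6301 and 12271 UMIs. Of the barcode sequences 33 occur in both libraries, 31 of them among kept cells, and each was treated as 2 cells. Levels are UMIs per 1000000 UMIs of the cells in question (UPM), given with exact 95% Poisson intervals. Since UMIs are counted at transcript ends, UPM is not divided by length, and levels of different genes can be compared only with differences in capture set aside. With 1 library per group there is no spread between samples and no test: every interval covers counting error only, and rose or fell are used only of a gene that passed a size rule: a ratio of 2-fold or more, with 50 UMIs and 20 UPM or more in whichever library had the higher level.

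Alveolar macrophage-like cells, called alveolar macrophages from here, were named from 15 markers that include none of the 8 genes. There were 629 in the saline library (12.1% of cells, median 4160 UMIs) and 327 in the bleomycin library (7.59%, median 6678). None of the 15 markers was at 0 in either library. Their sum was 14673 UPM in saline and 17520 in bleomycin cells, with Marco at 158 and 363 and Siglecf at 91.3 and 63.9. Lepr stood at 87.8 and 65.2 UPM in them, against 44.2 and 3.51 in fibroblasts. Of the 6 eosinophil markers 5, among them Prg2, Epx, Il5ra and Ccr3, had no UMI in these cells in either library. The libraries hardly mixed: most saline alveolar macrophages were in immune clusters 0, 1, 2, 5, 6, 9 and 11, most bleomycin ones in 3, 4, 12, 13 and 15, and only cluster 8 had at least 20 cells of each, so that a cluster found in 1 library may be that library and not a kind of cell.

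After bleomycin 1 of the 8 genes rose in alveolar macrophages (Ear10), 4 fell (Rnase2a, Retnla, Fbp1 and Krt79), and 3 passed in neither direction (Ear1, Ear2 and Chil3). By the same rule 3.03% of 5141 genes tested in these cells rose and 5.35% fell. The median log2 ratio of bleomycin over saline (with 1 UPM added to each level) was -1.33 over the 8 genes and -0.10 over 6970 genes with at least 50 UMIs. The counts rest on 2 small clusters, picked for the highest bleomycin level of Ear10 and the highest saline level of Fbp1. Without immune cluster 15, which has 36 bleomycin cells, none rose, 5 fell (Ear1 among them) and the median was -1.96, and without immune cluster 2, which has 103 saline cells, 1 rose and 2 fell. The shares of all genes called were not computed with these clusters left out, so these counts have no background beside them.

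**Figure D1:**
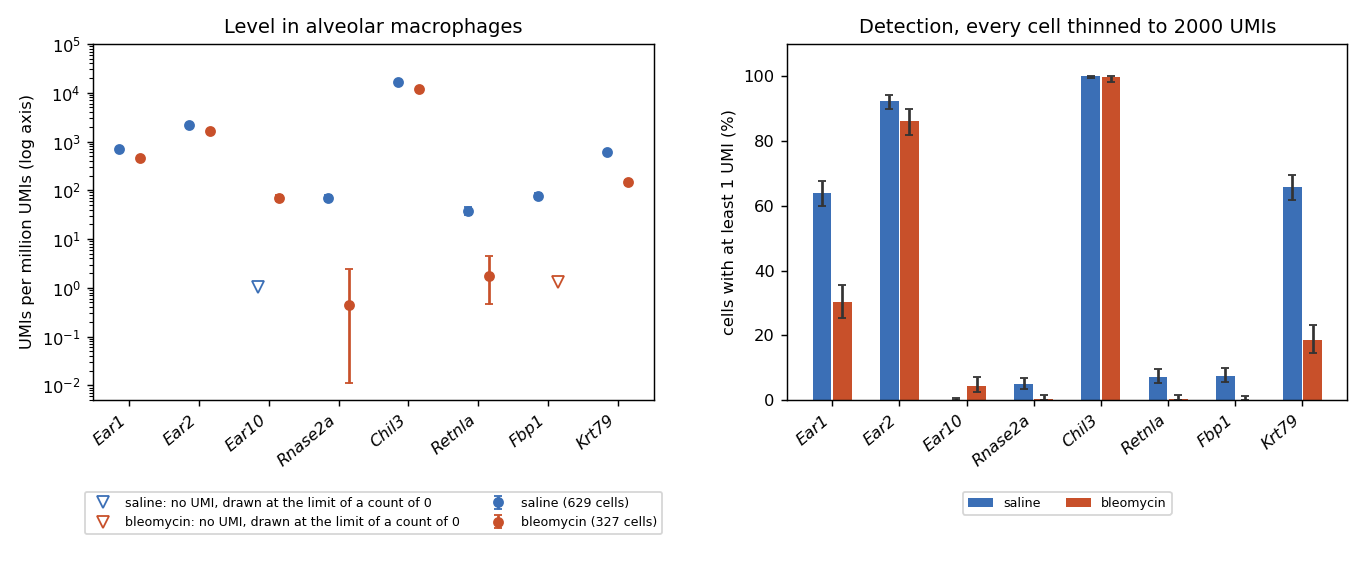
Left, level of each gene in alveolar macrophages of the saline (blue) and bleomycin (orange) library, in UPM on a log axis with exact 95% Poisson intervals; open triangles are genes with no UMI, drawn at the limit that a count of 0 allows. Right, share of cells with at least 1 UMI after each cell was thinned to 2000 UMIs, with 95% Clopper-Pearson intervals: Chil3 was found in 100% and 99.7% of cells, Krt79 in 65.7% and 18.7%.

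Of the ribonuclease genes Ear2 had the most UMIs counted, with the split of reads between Ear1, Ear2 and Ear10 uncertain. Its level was 2164 UPM (2110 to 2218) in saline alveolar macrophages and 1613 UPM (1561 to 1665) in bleomycin ones, a ratio on the log2 scale of -0.42 (-0.48 to -0.37). The difference was larger than counting error and well short of 2-fold. Unthinned, 98.7% and 97.9% of cells had an Ear2 UMI. At 2000 UMIs per cell it was found in 92.4% of saline and 86.2% of bleomycin cells, with a median of 4 and 2 UMIs per cell, against 1.09% and 0.26% of fibroblasts, which had median depths of 6836 and 13599 UMIs before thinning. Over the clusters with at least 20 cells it ranged from 1326 to 3168 UPM in 8 saline clusters and from 910 to 3695 in 6 bleomycin clusters, and the 2 ranges overlap.

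The mean level of Ear1 differed by less than 2-fold between the libraries, 691 UPM (660 to 722) and 459 UPM (432 to 488), a log2 ratio of -0.59 (-0.70 to -0.48). The cells behind these means differed more. In the saline library 518 of 629 alveolar macrophages (82.4%) had an Ear1 UMI, and no cell held more than 26 of the 1966. After bleomycin 165 of 327 (50.5%) had one, and the top cell held 90 of the 1056, or 8.52%. At equal depth Ear1 was found in 63.9% (60.02% to 67.7%) of saline and 30.3% (25.3% to 35.6%) of bleomycin cells, against 0.20% and 0.11% of fibroblasts. In saline 7 of 8 clusters had between 499 and 1163 UPM and cluster 2 had 347, while 5 of 6 bleomycin clusters had between 85.8 and 260 and cluster 15 had 2703. With cluster 15 left out Ear1 passed the size rule, at a log2 ratio of -1.66.

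Ear10 was not found in saline cells of any class. Among 8578 Ear1 and Ear2 UMIs of all saline cells there was no Ear10 UMI, which allows a share of up to 0.035%. Whether reads of Ear1 or Ear2 were counted as Ear10 in the bleomycin library, or Ear10 reads as theirs, was not tested. In bleomycin alveolar macrophages Ear10 had 161 UMIs, 70.0 UPM (59.6 to 81.7), at least 66.4-fold higher than the limit of 3 counts in saline (1.05 UPM). It was found in 17 of 327 cells (5.20%), and at equal depth in 4.28% (2.36% to 7.08%) against 0% in saline, which allows up to 0.48%. No fibroblast of either library had an Ear10 UMI at that depth, and 0.17% of bleomycin fibroblasts, or 8 UMIs in all, had one unthinned.

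Immune cluster 15, led by Ear10, Ang4 and the apolipoprotein gene Apoc4, with 36 bleomycin cells and no saline cell, held 93.2% of the Ear10 UMIs of bleomycin alveolar macrophages, 57.3% of those of Ear1 and 22.3% of those of Ear2 in 11.01% of the cells. The 8 genes and their relatives were left out of the genes used for clustering, so the cluster was not formed on them. It was picked afterwards for its Ear10 level, so its Ear10 values are descriptions and not tests. Ear10 stood at 670 UPM there and 5.30 in the 291 other bleomycin alveolar macrophages, Ear1 at 2703 and 217, and Ear2 at 3695 and 1388. Chil3, which is no ribonuclease, was also higher there, at 20146 against 10915 UPM. Other ribonucleases of the superfamily were higher there too: Ang4, an angiogenin known from Paneth cells, had 21 UMIs in the 36 cells and 0 in the 291, Ang5 had 12 and 1, and Ear6 76.0 and 23.6 UPM. Rnase2a (1 UMI), Fbp1 (0) and Krt79 (40.2 against 156 UPM) were not.

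Within cluster 15 Ear10 was found in 13 of 36 cells, Ear1 in 24 and Ear2 in all 36. The 13 cells with an Ear10 UMI held 1 to 28 Ear10 UMIs (median 12), 5 to 90 Ear1 UMIs (median 41) and 3 to 106 Ear2 UMIs (median 55). The 23 cells without one held 0 to 10 Ear1 UMIs (median 0) and 2 to 24 Ear2 UMIs (median 7), at median depths of 5120 and 6414 UMIs per cell. Both sets had Chil3, at medians of 172 and 76 UMIs. C1qa, a complement chain that marks monocyte-derived and interstitial macrophages, had UMIs in 10 of the 13 cells and in none of the 23, and Marco, a scavenger receptor of alveolar macrophages, in 9 of the 13 and 5 of the 23. The cells were divided by Ear10 itself, so these are descriptions and not tests.

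Whether cluster 15 counts as alveolar macrophages depended on the settings. It had the closest contest of any cluster of that name, with a mean of 61.9% of its cells carrying an alveolar macrophage marker and 34.5% a monocyte or interstitial macrophage marker. Of its 36 cells 22 kept the name at a higher clustering resolution, with 14 named monocyte or interstitial macrophages, and 5 kept it with no doublets left out, with 31 in unnamed immune clusters. Summed over all alveolar macrophages the 12 monocyte and interstitial macrophage markers stood at 384 UPM in saline and 1048 in bleomycin cells, 7 of the 12 rose and none was at 0, and their part in the Ear10 and Ear1 values was not tested.

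**Figure D2:**
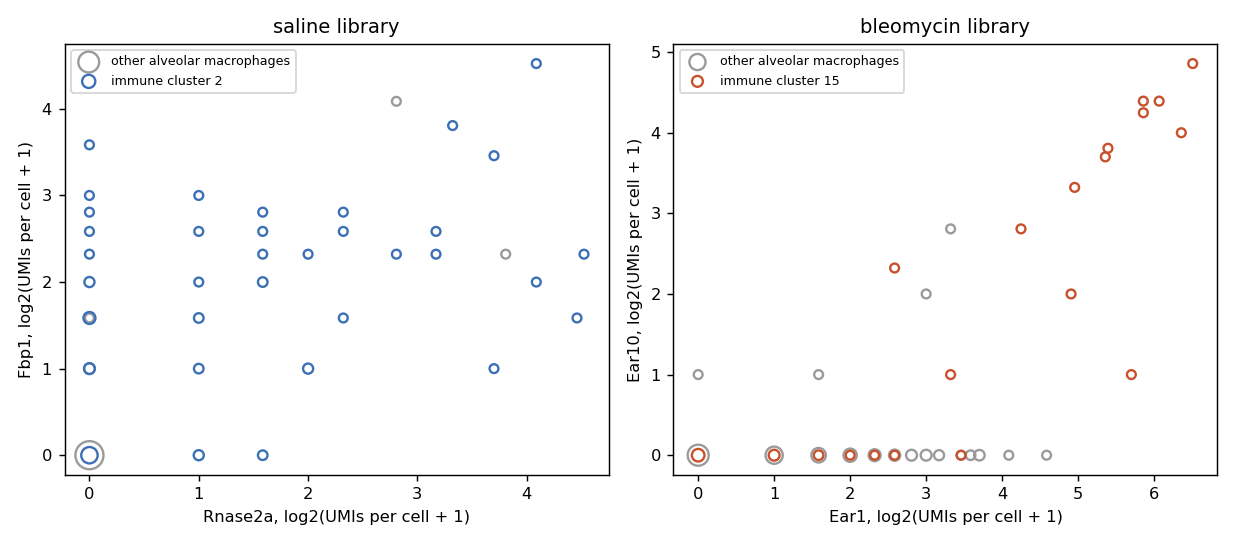
UMIs per single alveolar macrophage on a log2(UMIs + 1) scale; each circle is a pair of values and its area grows with the number of cells. Left, Fbp1 against Rnase2a in the saline library with immune cluster 2 in blue; right, Ear10 against Ear1 in the bleomycin library with immune cluster 15 in orange, where 13 of 36 cells lie above 0 for Ear10.

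Rnase2a and Fbp1 showed the opposite pattern, with UMIs in saline cells and nearly none after bleomycin. Rnase2a, a ribonuclease of the eosinophil-derived neurotoxin kind, had 197 UMIs in saline alveolar macrophages, 69.2 UPM (59.9 to 79.6), and 1 UMI in bleomycin ones, 0.43 UPM (0.01 to 2.42), a log2 ratio of -5.61. Fbp1 had 221 UMIs, 77.6 UPM (67.7 to 88.6), in saline and none in bleomycin cells, at least 59.5-fold lower than in saline when set at the limit of 3 counts. The values of both libraries do not overlap within counting error for either gene. Few cells carried them: Rnase2a was found in 36 of 629 saline cells and Fbp1 in 58, and 31 cells had both, which is 86.1% of the first and 53.4% of the second. At equal depth the shares were 4.93% and 7.47% in saline, 0.31% and 0% in bleomycin (a count of 0 allows up to 0.92%), and 0% and 0.11% in saline fibroblasts.

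Immune cluster 2, with 103 saline cells and no bleomycin cell, held 90.4% of the Rnase2a and 88.2% of the Fbp1 UMIs of saline alveolar macrophages in 16.4% of the cells. It was picked for its Fbp1 level, so its Fbp1 values are descriptions and not tests. Rnase2a stood at 364 UPM there and 8.06 in the 526 others, and Fbp1 at 398 and 11.03. In 6 of the 8 saline clusters with at least 20 cells Rnase2a had no UMI, and cluster 8, of cycling cells, was the other with one. Chil3 was also highest in cluster 2, at 36567 UPM against 12287 in the others, while Ear1 was lowest there (347 against 762), and Ear2 (2379 against 2119) and Krt79 (582 against 615) were near the rest. Besides Fbp1 and Rnase2a, cluster 2 was led by the chemokines Cxcl9, Ccl24 and Ccl17, by Inhba, a subunit of activin, and by Mmp12, the macrophage elastase. Ccl17 had 896 UPM there and 17.8 in the others, Mmp12 874 and 47.5, and the class II invariant chain Cd74 7164 and 3533. With cluster 2 left out Rnase2a and Fbp1 no longer passed the size rule, at log2 ratios of -2.66 and -3.59, since under 50 UMIs of each were left.

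Chil3 was the most abundant of the 8 transcripts and was found in every saline alveolar macrophage. Its level was 16463 UPM (16314 to 16613) in saline and 11814 UPM (11674 to 11955) in bleomycin cells, a log2 ratio of -0.48 (-0.50 to -0.46). At 2000 UMIs per cell the median was 22 Chil3 UMIs in saline and 21 in bleomycin cells, and the tenth to ninetieth percentiles ran from 8 to 69.2 and from 10.6 to 39. The medians hardly differed, and the higher saline mean went with a longer upper tail. Cluster 2 alone held 38.2% of the saline Chil3 UMIs, and without it the log2 ratio was -0.06. Bleomycin clusters lay between 7353 and 20146 UPM and the saline clusters between 9366 and 36567, so the ranges overlap.

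Krt79 fell across the whole class. It had 1734 UMIs, 609 UPM (581 to 638), in saline and 333 UMIs, 145 UPM (130 to 161), in bleomycin alveolar macrophages, a 4.21-fold lower level and a log2 ratio of -2.07 (-2.25 to -1.90). Unthinned, 84.7% and 38.5% of cells had a Krt79 UMI, and at equal depth 65.7% (61.8% to 69.4%) of saline and 18.7% (14.6% to 23.3%) of bleomycin cells did, against 0.48% and 0.03% of fibroblasts. The 8 saline clusters ran from 484 to 847 UPM and the 6 bleomycin clusters from 40.2 to 220. No bleomycin cluster reached the lowest saline one, which among the genes measured in both libraries held for Krt79 and Retnla but not for Ear1, Ear2 or Chil3. Krt79 kept its call under all 17 other settings tried, with log2 ratios from -2.17 to -1.93. Those that changed only the UPM added to each level could not change a call.

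Retnla passed the size rule in alveolar macrophages, but its saline level there was like that of alveolar type 2 cells. It had 108 UMIs, 37.9 UPM (31.1 to 45.8), in saline and 4 UMIs, 1.74 UPM (0.47 to 4.45), in bleomycin alveolar macrophages, a log2 ratio of -3.83. No saline alveolar macrophage held more than 2 of them. Saline alveolar type 2 cells had 40.2 UPM (31.6 to 50.5), ciliated cells 19.6, fibroblasts 18.4 and smooth muscle cells 16.9. A UMI was found in 15.7% of saline and 1.22% of bleomycin alveolar macrophages unthinned, and in 7.15% and 0.31% at equal depth. At that depth the saline share was 6.15% in alveolar type 2 cells and 3.58% in fibroblasts. In fibroblasts Retnla went from 18.4 to 1.11 UPM, below the 20 UPM of the size rule. The source with by far the most was a cluster of 38 saline epithelial cells led by Scgb3a1, Scgb3a2 and Scgb1a1, secretoglobins of club cells, and by Tff2, Bpifb1 and Clca1. It stayed unnamed between kinds of epithelium. Retnla stood there at 11994 UPM (11710 to 12284), 6756 of the 7711 Retnla UMIs of the library. It was found in 17 of the 38 cells, and 8 cells with 160 to 2375 UMIs (median 384) held 99.3% of them. The bleomycin library had 3 such cells, with no Retnla UMI, which allows up to 99.2 UPM, and 110 Retnla UMIs in all. Over all cells Retnla fell from 219 to 1.87 UPM, beside 38 and 3 cells of this cluster.

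**Figure D3:**
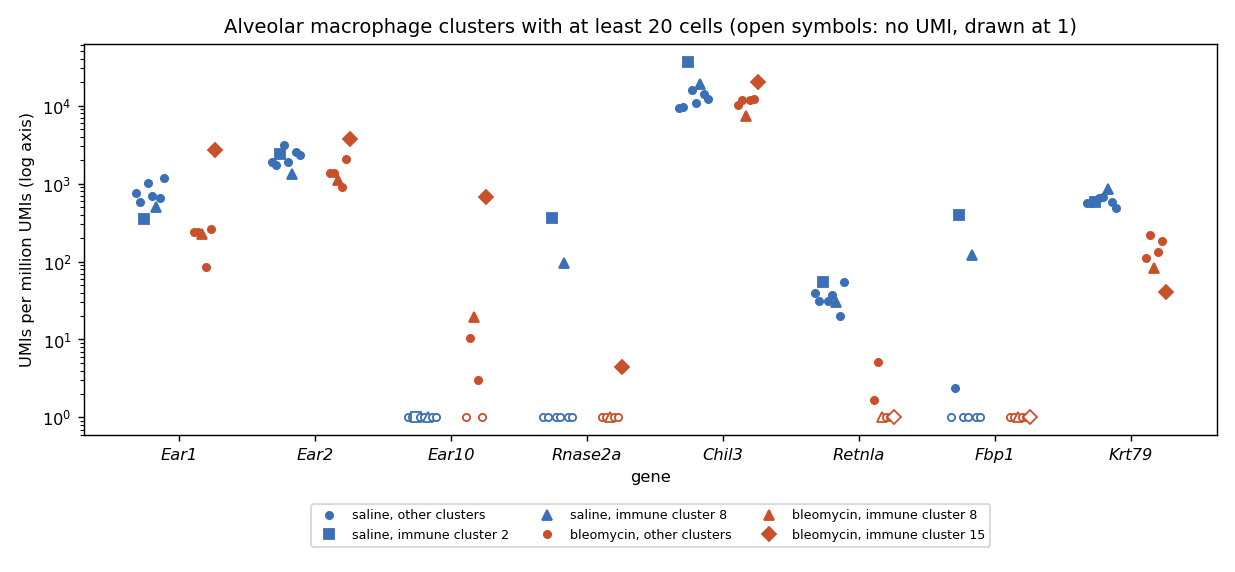
Level of each gene in every alveolar macrophage cluster with at least 20 cells of a library, in UPM on a log axis, saline in blue and bleomycin in orange; open symbols had no UMI and are drawn at 1. Cluster 15 (diamonds) stands above the other bleomycin clusters for Ear1, Ear2, Ear10 and Chil3, and on 1 UMI for Rnase2a. Cluster 2 (squares) stands above the other saline clusters for Rnase2a, Fbp1 and Chil3, and all bleomycin points of Krt79 lie below the saline ones.

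Cluster 8, led by the cell cycle genes Nusap1, Birc5 and Ube2c, was the only alveolar macrophage cluster with at least 20 cells of each library, 31 saline and 23 bleomycin. In it Krt79 fell from 847 to 82.6 UPM, Chil3 from 18715 to 7353 and Ear1 from 499 to 224, while Ear2, at 1326 and 1098, passed in neither direction. Of 694 genes tested in this cluster 5.04% rose and 6.34% fell. Rnase2a had 19 saline UMIs and Fbp1 24, with no bleomycin UMI of either, and Ear10 had 4 bleomycin UMIs and no saline one, all under the 50 UMIs that the rule asks for. One saline cell held 13 of the 19 Rnase2a and 1 held 16 of the 24 Fbp1 UMIs.

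The other macrophages had less of most of these genes. Monocyte or interstitial macrophage-like cells numbered 52 in the bleomycin library and 4 in the saline library, where only Chil3 (7 UMIs) was found. In the 52 cells Chil3 stood at 867 UPM (784 to 957), Ear2 at 453 (394 to 519), Ear1 at 86.7 (62.0 to 118), Retnla at 65.0 (43.9 to 92.9), Rnase2a at 21.7 (10.4 to 39.9) and Ear10 at 6.50 (1.34 to 19.0). Krt79 had no UMI there, which allows up to 6.50 UPM, against 145 in bleomycin alveolar macrophages. Single cells weighed heavily: 1 cell held 116 of the 400 Chil3 UMIs, 1 held 24 of the 40 Ear1 UMIs and 1 held 20 of the 30 Retnla UMIs. Ear2 was more even, with UMIs in 27 of the 52 cells and at most 25 of the 209 in 1 cell. Per 100 Chil3 UMIs there were 52.2 Ear2 UMIs (45.4 to 59.8) in these cells and 13.7 (13.2 to 14.1) in bleomycin alveolar macrophages. These intervals do not overlap, but they cover the counting error of Ear2 only and take the Chil3 count as fixed. Rnase2a had 10 UMIs in the 52 cells and 1 in the 327 alveolar macrophages of the same library.

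In fibroblasts Chil3 fell from 47.5 UPM (44.9 to 50.2) to 20.9 (19.7 to 22.2), where 6.15% of 5886 genes rose and 9.72% fell. Its UMIs there were 1228 in 3573 saline cells and 1092 in 3516 bleomycin cells. All genes together had 25862683 UMIs in saline and 52137363 in bleomycin fibroblasts. In blood endothelial cells Chil3 fell from 64.7 to 17.9 UPM, where 4.41% of 3607 genes rose and 8.93% fell. The part of alveolar macrophage transcripts in the Chil3 values of other classes was not tested. In smooth muscle cells, where 6.31% of 2299 genes rose and 3.87% fell, Chil3 had 22 and 10 UMIs, too few for the rule. Per 100 Chil3 UMIs there were 12.1 Ear2 UMIs (10.2 to 14.2) in saline fibroblasts and 13.1 (12.8 to 13.5) in saline alveolar macrophages, and 12.1 (10.1 to 14.3) and 13.7 (13.2 to 14.1) in the bleomycin library. For Krt79 the values were 4.64 (3.52 to 6.01) and 3.70 (3.53 to 3.88) in saline, and 1.65 (0.98 to 2.61) and 1.23 (1.10 to 1.36) in bleomycin. In both libraries the intervals of Ear2 and Krt79 in fibroblasts, with the Chil3 count again taken as fixed, overlap those in alveolar macrophages. The intervals of Retnla did not overlap, at 38.7 (35.3 to 42.3) per 100 Chil3 UMIs in saline fibroblasts and 0.23 (0.19 to 0.28) in saline alveolar macrophages. In the bleomycin library those of Retnla, Rnase2a and Fbp1 did not overlap either, on few UMIs for the last pair: fibroblasts had 2 Rnase2a and 4 Fbp1 UMIs, and alveolar macrophages 1 and 0. Alveolar macrophages held 93.4% to 96.1% of the saline UMIs of Ear1, Ear2, Rnase2a, Chil3, Fbp1 and Krt79 in 12.1% of cells, and 1.40% of those of Retnla. Summed over all cells of a library Ear1, Ear2, Chil3, Retnla and Krt79 all fell and the other 3 had too low a level, where 4.99% of 6050 genes rose and 9.54% fell, beside 12.1% and 7.59% of cells that were alveolar macrophages.

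**Figure D4:**
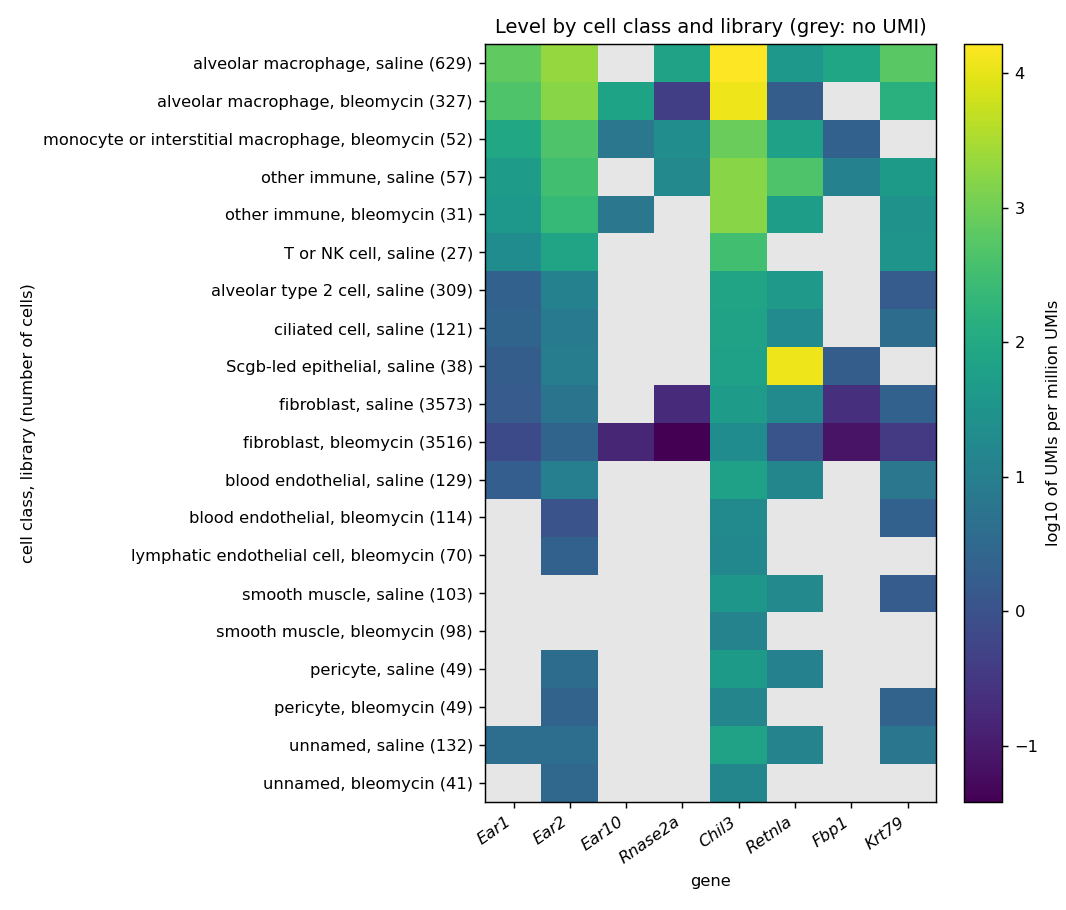
Level of each gene, as log10 of its UPM, in every cell class and library with at least 20 cells (number of cells in brackets); grey cells had no UMI. Chil3, Ear2, Ear1 and Krt79 are highest in alveolar macrophages, Retnla in 38 secretoglobin-led epithelial cells of the saline library at 11994 UPM, and Ear10 is grey in every saline row.

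Genes with the most similar patterns were picked by a fixed rule and are given as descriptions, since points share a library and a depth. Over 12 class and library profiles the log levels of Krt79 followed those of Cidec (Pearson r = 0.99) and Fabp1 (0.97), which handle lipid droplets and fatty acids, and those of Ear1 followed Arhgap30 (0.997) and Atp6v0d2 (0.99). Chil3 followed Fpr2 (0.99), Ear2 Itgax (0.98), Rnase2a Ccl17 (0.91), Ear10 S100a8 (0.83), Fbp1 Canx (0.81) and Retnla Rasgef1b (0.77). Across 629 single saline alveolar macrophages thinned to 2000 UMIs Rnase2a went with Mmp12 (0.79), AA467197 (0.58) and Fbp1 (0.64), Fbp1 with Mmp12 (0.66), and Chil3 with Cd74 (0.41) and Fbp1 (0.46). Across 327 bleomycin ones Ear1 went with Ear10 (0.75), C1qa (0.55) and Ear2 (0.50). Krt79 and Retnla had no strong partner in single saline cells, with highest values of 0.15 for Med10 and 0.17 for Pparg.

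Relatives and pathway genes of the 8 moved in part. Of 26 listed genes of the RNase A superfamily 20 were in the files and 5 of those other than the 4 ribonucleases followed here had at least 20 UMIs in alveolar macrophages: Ear6, whose transcript shares 50-base windows with those of Ear1, Ear2 and Ear10, rose from 2.46 to 28.7 UPM, Rnase6 fell from 45.3 to 17.8, and 3 passed in neither direction. Rnaset2b, a lysosomal ribonuclease of another family, rose from 30.9 to 71.7 UPM. None of the 3 other measured chitinases and chitinase-like genes passed, and no other resistin gene was measured. Of the 2 other measured keratins Krt19, a type I keratin of simple epithelium, fell from 353 to 95.2 UPM. Of 10 other genes of gluconeogenesis and upper glycolysis 1 rose, the aldolase Aldoc, from 30.6 to 102 UPM, and none fell.

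Responses to IL-4 and IL-13, of which Retnla and Chil3 are classical targets, did not move one way. Of 14 measured genes 1 rose and 4 fell, with a median log2 ratio of -0.53: Arg1, the arginase of such macrophages, rose from 4.21 to 23.5 UPM, while Ccl17 fell from 169 to 16.1, Ccl24 from 47.1 to 3.91 and Cish, a suppressor of cytokine signalling, from 56.2 to 13.9. The call of Arg1, the only one upward, rested on 12 saline and 54 bleomycin UMIs, near the minimum of the rule. Arg1 was also among the leading genes of immune cluster 7, of monocyte or interstitial macrophage-like cells. The part of such cells in its rise was not tested. Most of the saline Ccl17 and Ccl24 UMIs were those of cluster 2, 439 of 481 and 129 of 134. In the GM-CSF and PPARG list 1 of 18 rose, Fabp5 from 645 to 1819 UPM, and 4 fell, among them the scavenger receptor Cd36 (216 to 67.0) and the transcription factors Bhlhe40 (499 to 212) and Cebpa (228 to 104), with a median of -0.22. Of the 15 alveolar macrophage markers 2 rose, Marco (158 to 363) and Ctsd (2861 to 6587), and 3 fell, among them Fabp1 (557 to 66.5) and Cidec (243 to 43.9), with a median of -0.21. Among genes known from macrophages of fibrotic lung 7 of 15 rose and 1 fell, with a median of 0.78: Spp1, osteopontin, rose from 355 to 3032 UPM and Cd63 from 248 to 1038, while Mmp12 fell from 190 to 37.0.

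Transcripts of other cells also differed between the libraries in these same alveolar macrophages. Of 12 genes of epithelial cells and fibroblasts 8 fell and 2 rose. Sftpc, a surfactant protein of alveolar type 2 cells, went from 1051 to 7.39 UPM, Scgb1a1 from 1719 to 22.2, Sftpb from 54.8 to 0.43, and Sftpa1 from 160 to no UMI. The libraries had 309 and 1 alveolar type 2 cells. The part of such transcripts in the Retnla values of alveolar macrophages was not tested.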

How the data were processed

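Per the labels, live tdTomato-positive lung cells were captured with 10x Genomics chemistry; per the submitters' processing notes the authors used Cell Ranger 2.1.1 on mm10. Each deposited matrix holds UMI counts, whole numbers that were not normalized, by gene and barcode; the annotation release is not given in the sources used here. Of 28692 gene identifiers, 98.8% are in GENCODE vM21, used for positions and transcripts.

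Barcodes were kept from 500 genes and 1000 UMIs upward, and with mitochondrial UMIs of at most 10% (23 and 5 failed), and the 236 and 160 highest Scrublet scores, up to 0.8% per 1000 barcodes, were left out as doublets, since the automatic threshold marked 8 and 5. Cells were clustered with scanpy 1.11.5 (2000 variable genes per library, 30 principal components, 15 neighbours, Leiden resolution 1, immune cells again at 2) without the 8 genes and their relatives, and named from fixed markers; naming thresholds and the immune resolution were chosen after clusters were seen. UMIs were summed per class and library, with exact Poisson, conditional binomial (ratios) and Clopper-Pearson (shares) intervals at 95%. For shares of cells, each cell was thinned to 2000 UMIs; no cell was shallower. Other genes were named by rule: up to 4 per list with the largest ratios past the size rule, and the 3 most correlated genes (at least 200 UMIs) per gene. The genes and lists were chosen with earlier results of these data known. On simulated alveolar macrophage counts with 200 genes changed 3-fold the size rule found 200 and called 2 of 4798 unchanged genes. The changed genes were all drawn from well above the minimum of the rule, and only counting error was simulated. The simulation therefore does not show how the rule does for genes near that minimum, or with spread between cells or libraries.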

Additional observations from a re-analysis of the deposited data

How the results depend on the processing

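Of the 8 genes 1 rose, 4 fell and the median log2 ratio in alveolar macrophages was -1.33. Under the stricter barcode filter, with no doublets left out and at Leiden resolution 2 no gene rose (0 in each), and the median was -1.76, -1.74 and -2.04. Another 3 settings, each leaving out some clusters, were chosen after seeing the data. Without immune cluster 15, 0 rose and the median was -1.96, and without immune cluster 2, 2 fell. Shares of all genes called in alveolar macrophages were computed for the main setting only, so counts under other settings have no background. Over these 3 values 42 of 51 stayed within 1.5 times the count or, for the median, within a range of -1.47 to -1.19. That range runs from the median of the 8 genes' lower counting limits to the median of their upper ones. It is not an interval of the median itself.

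For single genes 124 log2 ratios under other settings kept their call, 7 lost it, 5 gained one and 0 changed direction. Settings that changed only the UPM added to each level could not change a call, or the counts of genes that rose or fell. Their values are among those that stayed the same and say nothing of how stable the calls were. Ear10 lost its call under the stricter filter (3.70), with no doublets left out (3.49), at resolution 2 (2.57) and without cluster 15 (2.65), Retnla with cells thinned to 2000 UMIs (-3.98), and Rnase2a and Fbp1 without cluster 2. Ear1 gained a call in the same 4 settings as Ear10, at -1.53, -1.56, -1.69 and -1.66, and with a ratio of 1.5-fold (-0.59). Chil3 ranged from -0.60 to -0.06, Ear2 from -0.71 to -0.24. Of 48 shares of cells 28 moved with the thinning or the number of UMIs asked for. No paired analysis was possible because there was 1 library per group, and for the same reason no library could be left out.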
